A study of Mus musculus with 9 samples.

Results

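Albumin, alpha-fetoprotein and the plasma carrier proteins form the set described here. It is made of 10 genes, namely Alb, Afp, Ttr, Ahsg, Fetub, Trf, Hpx, Gc, Ambp and Rbp4. A gene was taken from a probe set that the platform annotation ties to that gene symbol alone. By this rule 9 of the 10 were measured, each by 1 probe set, among 19938 genes of the array named in the same way. Gc, the vitamin D-binding protein, is not analysed here for expression.

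The arrays were 9 whole-transcript arrays of C57Bl/6 mice, 3 a group. The AS lines were 3 cell lines labelled hepatic angiosarcoma, a tumour of the vessel lining, with the genotype Notch1 knockout. They were grown out of hepatic endothelial cells of knockout mice that carried a visible tumour, by long culture until the cells were uniform. The KO livers came from 3 MxCre Notch1 lox/lox mice. The WT livers came from 3 Notch1 lox/lox mice without the Cre. Mice of both genotypes had received 300 µg of polyinosinic-polycytidylic acid (poly(I:C)) at 4 weeks of age, on days 0, 3 and 6. The poly(I:C) switches on the Mx promoter that drives Cre, which removes an exon of Notch1 encoding the signal peptide. This promoter is not limited to endothelium, so deletion in other liver cells is possible. The labels call the 3 samples of a group biological replicates. They do not say whether the 3 lines came from different mice, nor whether the KO livers held tumours.

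Hepatocytes make nearly all of these proteins and secrete them into the blood. Albumin holds the water of plasma in the vessels and carries fatty acids, bilirubin and many drugs. Alpha-fetoprotein is its relative of fetal life, made by fetal liver and yolk sac, shut off after birth and made again by some liver tumours and by regenerating or progenitor-like cells. Transthyretin (Ttr) carries thyroid hormone and, with retinol-binding protein (Rbp4), vitamin A. Transferrin (Trf) carries iron, hemopexin (Hpx) carries free heme, and Ambp encodes alpha-1-microglobulin, a heme-binding scavenger, joined to the protease inhibitor bikunin. Fetuin-A (Ahsg) and fetuin-B (Fetub) are related proteins: fetuin-A binds calcium phosphate in plasma, and fetuin-B protects the egg coat from early hardening.

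The values are log2 expression after a normalization that gave the arrays nearly the same distribution, with medians between 6.53 and 6.63 and highest values between 14.20 and 14.48. Each group pair was compared with limma over all 19938 genes, and a gene was called when its Benjamini-Hochberg adjusted p was under 0.05. Notch1 was at 8.75, 8.61 and 7.83 in AS lines 1, 2 and 3, at 7.84, 8.75 and 8.52 in KO livers and at 11.69, 11.02 and 11.71 in WT livers. The KO livers were thus all below the WT livers, with a difference of -3.10 (SE 0.302, adjusted p = 0.0995). The AS lines did not carry the endothelial pattern of their label. All 16 endothelial markers were called lower in AS lines than in KO livers, and all 16 than in WT livers, also under each of the 14 alternatives in either comparison. Their mean level ran from 6.31 to 6.52 in the lines, against 11.73 to 12.15 in KO livers and 11.72 to 11.83 in WT livers. Cdh5, the cadherin of endothelial junctions, was at 5.47, 5.66 and 5.45 in the lines. Krt19, a keratin of bile duct and other epithelia, was at 11.82, 12.18 and 11.93 in AS lines, at 5.67 to 5.83 in KO livers and at 6.19 to 6.76 in WT livers. The mesothelial and epithelial marker Msln likewise was at 11.65 to 12.43 in AS lines, at 6.00 to 6.20 in KO livers and at 6.15 to 6.32 in WT livers. Of 10 bile duct markers 5 were called higher and 1 lower than in WT livers, beside 17.6% and 11.1% of all genes. Of 8 mesothelial markers 3 were called higher, namely Msln and the keratins Krt8 and Krt18, and none lower. Of the same 8 markers, 3 had a negative difference from WT livers, and 2 lay below them without overlap. No cell type name other than that of the label is given to the lines here.

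In every AS line Alb, Ttr, Trf and Hpx stood at 33.5% or more of their mean in WT livers on the linear scale. These genes lay high on the arrays, where differences can be compressed, so such percentages need not be shares of transcript kept. Afp, Ahsg, Fetub, Ambp and Rbp4 split the 3 lines. Afp was high in line 2 alone, Ahsg was near liver level in line 2 alone, Fetub was highest in line 2, Ambp was low in line 1, and Rbp4 was lowest in line 3. None of the 9 genes was called in any of the 3 comparisons. The lines are therefore described array by array below, before the tests.

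**Figure D1:**
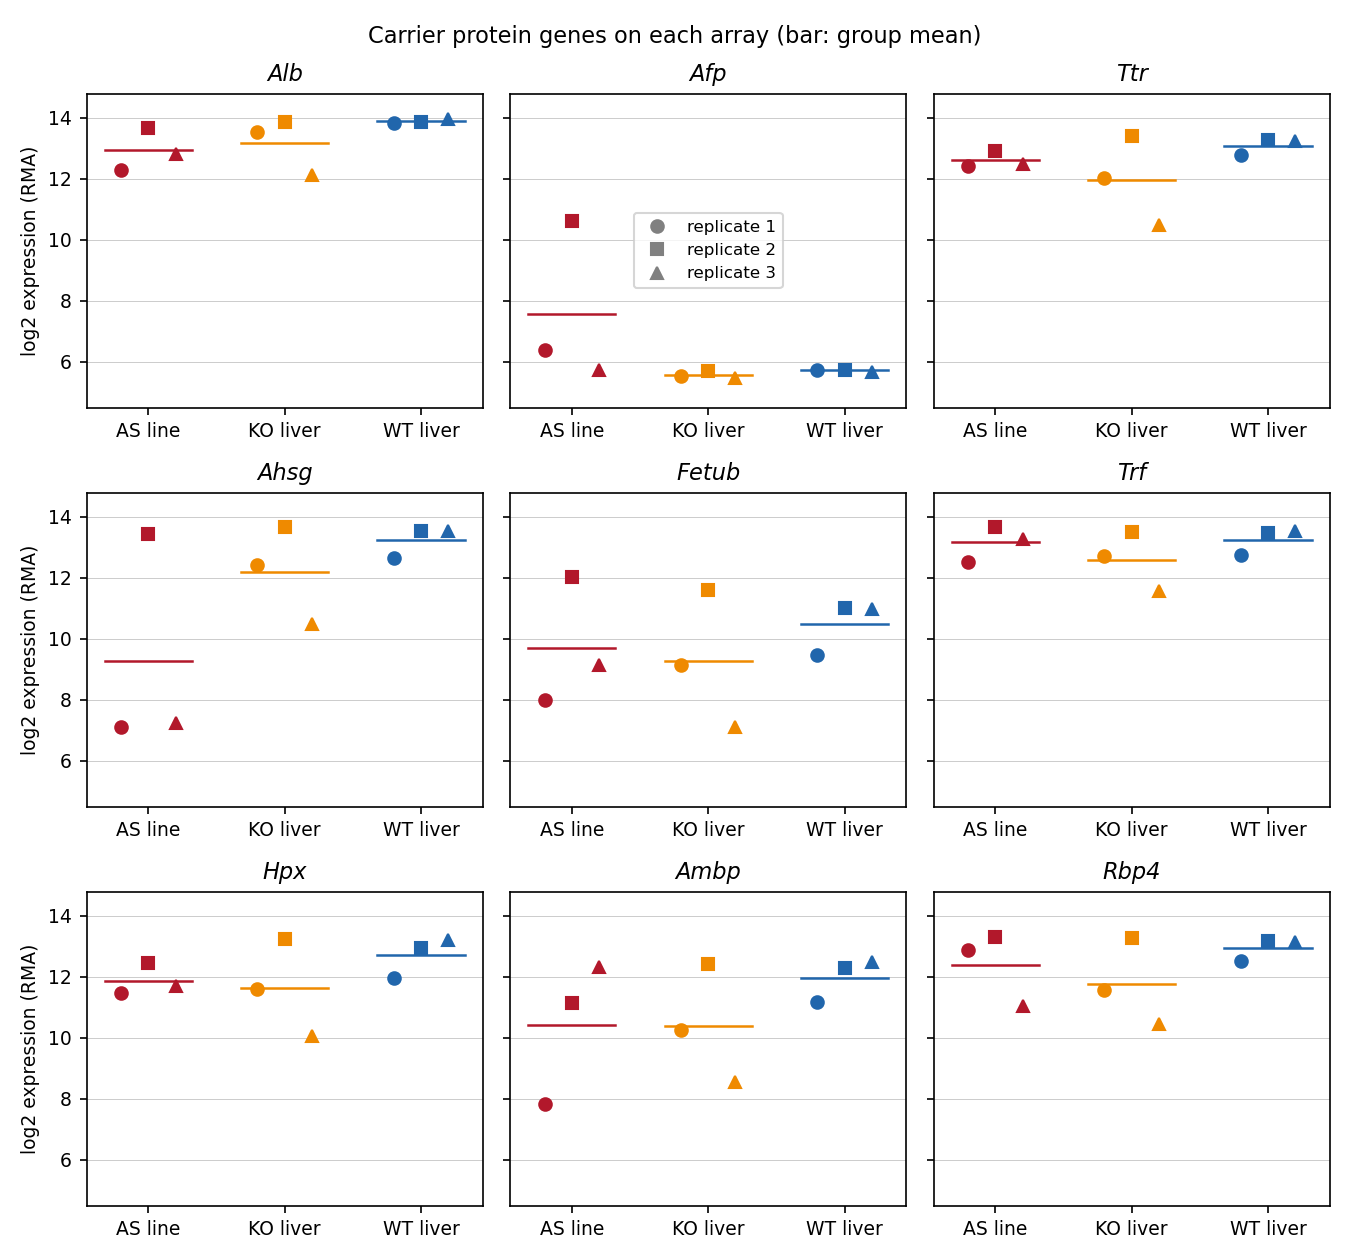
Log2 expression of the 9 measured carrier genes on each array, with AS lines, KO livers and WT livers from left to right in each panel, 1 symbol per replicate and a bar at each group mean. Afp is high in AS line 2 alone, Ahsg is low in lines 1 and 3, Ambp is low in line 1, and within the KO livers every gene is highest in replicate 2 and lowest in replicate 3.

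Alb was at 12.31, 13.67 and 12.82 in AS lines 1, 2 and 3, at 13.52, 13.86 and 12.14 in KO livers 1, 2 and 3 and at 13.84, 13.87 and 13.96 in WT livers 1, 2 and 3. Every line was below every WT liver, and the lines lay inside the range of the KO livers. The lines held 33.5%, 86.3% and 47.6% of the mean of the WT livers, and the KO livers 77.7%, 98.1% and 29.8%. The mean was 12.93 ± 0.69 in AS lines and 13.89 ± 0.07 in WT livers (SD, n = 3 each). The difference of -0.95 (SE 0.343, adjusted p = 0.0932) did not pass the threshold. Without line 2, the line with the most Alb, it was -1.32 and passed it (adjusted p = 0.00770). That line is singled out by the values tested, so this fit is no separate support. Alb lies close to the top of the scale of these arrays, where differences are compressed.

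Afp was at 6.38, 10.63 and 5.75 in AS lines, at 5.55, 5.69 and 5.46 in KO livers and at 5.75, 5.75 and 5.68 in WT livers. In the livers of both genotypes and in lines 1 and 3 these values lay below the median of their arrays, and the table has no detection calls, so they can be background. Line 2 was 4.91 above the mean of the WT livers on the log2 scale, which understates the difference where the liver values are background. The group of lines was 2.02 above KO livers (SE 1.32, adjusted p = 0.357) and 1.86 above WT livers (SE 1.29, adjusted p = 0.343). Without line 2 those differences were 0.50 and 0.34. The group differences of Afp thus rest on line 2, and with 1 array of that line they have no replicate check.

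Alb and Afp are neighbours on mouse chromosome 5, with no annotated gene between them. Next to Afp lies Afm, which encodes afamin, a carrier of vitamin E of the same family. Afm was at 8.07, 10.37 and 7.60 in AS lines, at 7.38, 9.63 and 6.41 in KO livers and at 7.67, 9.22 and 9.46 in WT livers. All 3 genes of the cluster were highest in line 2 among the lines, and Afm and Afp were higher there than on any other array. Over the 3 lines the mean of Afm was 0.10 below that of WT livers (SE 0.859, adjusted p = 0.944).

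The promoters of Alb and Afp are shown because they sit side by side yet gave different patterns, and those of Ahsg and Fetub because they are neighbours too, on chromosome 16, with no protein-coding gene between them. Each is the stretch of 250 bases before a RefSeq transcription start (assembly GRCm38.p6), written 5′ to 3′ on the strand of the gene. Capitals mark TATAAA, the sequence of the TATA box, and CCAAT, the sequence of the CCAAT box, which reads ATTGG where it lies on the other strand. Both strands were searched, and no match overlapped another.
Alb, chr5:90460620-90460869, plus strand: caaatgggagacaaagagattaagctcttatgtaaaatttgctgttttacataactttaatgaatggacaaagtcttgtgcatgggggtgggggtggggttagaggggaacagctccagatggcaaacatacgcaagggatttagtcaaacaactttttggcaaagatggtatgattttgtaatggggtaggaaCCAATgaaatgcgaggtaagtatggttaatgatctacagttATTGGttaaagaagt
Afp, chr5:90490464-90490713, plus strand: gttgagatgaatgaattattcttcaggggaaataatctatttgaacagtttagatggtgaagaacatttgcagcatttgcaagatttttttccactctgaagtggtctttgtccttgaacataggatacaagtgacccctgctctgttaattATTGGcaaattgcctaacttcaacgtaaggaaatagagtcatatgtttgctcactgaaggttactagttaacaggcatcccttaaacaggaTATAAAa
Ahsg, chr16:22891765-22892014, plus strand: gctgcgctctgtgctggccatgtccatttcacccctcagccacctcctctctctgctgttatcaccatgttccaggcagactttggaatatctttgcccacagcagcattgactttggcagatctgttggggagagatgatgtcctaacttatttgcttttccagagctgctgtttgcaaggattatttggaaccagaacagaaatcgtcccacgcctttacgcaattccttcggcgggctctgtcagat
Fetub, chr16:22918132-22918381, plus strand: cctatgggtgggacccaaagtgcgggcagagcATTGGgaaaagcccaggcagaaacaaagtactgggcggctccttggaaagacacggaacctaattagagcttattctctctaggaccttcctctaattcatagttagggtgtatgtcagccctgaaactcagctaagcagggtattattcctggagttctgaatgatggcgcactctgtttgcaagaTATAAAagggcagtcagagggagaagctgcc

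The Alb window held CCAAT on the strand of the gene, from base -56 to base -52 counted back from the start, and on the other strand at -15 to -11. The Afp window held CCAAT on the other strand at -98 to -94 and TATAAA on its own strand at -7 to -2. In the printed Fetub window CCAAT lay on the other strand at -218 to -214 and TATAAA at -31 to -26. The Ahsg window and the window of the other Fetub start held neither. Of the windows not printed, that of 1 of the 2 Rbp4 starts held TATAAA, and those of Gc, Ambp, Hpx and the other Rbp4 start held CCAAT. Among 32851 mouse promoter windows of the same length, 12.4% held TATAAA and 33.8% held CCAAT on either strand. These matches describe letters only.

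Ahsg had the widest gap between lines of all members. It was at 7.11, 13.44 and 7.23 in AS lines, at 12.41, 13.67 and 10.49 in KO livers and at 12.64, 13.52 and 13.54 in WT livers. Line 2 thus lay at 115% of the WT mean, lines 1 and 3 at 1.44% and 1.56%. The lines as a group differed from WT livers by -3.97 (SE 1.77, adjusted p = 0.157) and from KO livers by -2.93 (SE 1.97, adjusted p = 0.369). Without line 2 the differences were -6.06 (adjusted p = 0.000653) and -5.02 (adjusted p = 0.0363) in limma, past the threshold in both. Line 2 is singled out here by the same Ahsg values, so these fits are a description and no support for a group difference. Fetub had the same order of lines, with smaller gaps to line 2 and a wider one between lines 1 and 3, at 7.99, 12.02 and 9.14 in AS lines, at 9.16, 11.60 and 7.10 in KO livers and at 9.47, 11.01 and 10.99 in WT livers. Line 2 was the highest of the 9 arrays for Fetub, at 289% of the WT mean, while the 3 lines as a group differed from WT livers by -0.77 (SE 1.09, adjusted p = 0.644).

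Among the iron and heme carriers, Trf stayed closest to the WT livers, Hpx was below them in lines 1 and 3, and Ambp was low in line 1. Trf was at 12.53, 13.68 and 13.27 in AS lines, at 12.72, 13.50 and 11.56 in KO livers and at 12.76, 13.46 and 13.53 in WT livers. Its mean differed between AS lines and WT livers by -0.09 (SE 0.357, adjusted p = 0.886), and line 2 had the highest value of all arrays. Hpx was at 11.46, 12.45 and 11.70 in AS lines, at 11.60, 13.24 and 10.05 in KO livers and at 11.98, 12.95 and 13.19 in WT livers. Lines 1 and 3 lay under the WT livers, at 42.2% and 49.8% of their mean, and line 2 among them. Ambp was at 7.82, 11.13 and 12.33 in AS lines, at 10.25, 12.42 and 8.55 in KO livers and at 11.16, 12.28 and 12.47 in WT livers. Here line 3 was the highest, at 128% of the WT mean, with line 2 at 55.9% and line 1 at 5.64%.

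The partners that carry vitamin A followed different orders. Ttr was at 12.42, 12.91 and 12.49 in AS lines, at 12.02, 13.41 and 10.48 in KO livers and at 12.77, 13.27 and 13.23 in WT livers. Its lines were the closest together among the members, spanning less than the KO livers. Rbp4 was at 12.88, 13.30 and 11.04 in AS lines, at 11.57, 13.26 and 10.44 in KO livers and at 12.53, 13.18 and 13.15 in WT livers. Lines 1 and 2 stood at 94.9% and 127% of the WT mean and line 3 at 26.4%, so Rbp4 was lowest in the line with the most Ambp. The mean difference of Rbp4 between AS lines and WT livers was -0.55 (SE 0.613, adjusted p = 0.556), and without line 3 it was 0.14.

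Line 2 was above line 1 for 9 of 9 members, by a median of 1.37, and above line 3 for 8 of 9, by a median of 0.86, Ambp being the exception. Over all genes the corresponding medians were 0.06 and -0.0042, and 5.28% and 3.96% of genes were more than 1 log2 unit higher in line 2. For the members that count was 6 of 9 against line 1 and 4 of 9 against line 3. Line 3 was above line 1 for 7 of 9. Line 2 was also the highest line for the lists most like the members, described below. Other carriers averaged 7.45, 8.74 and 7.81 in AS lines 1, 2 and 3, and other plasma proteins 7.50, 9.33 and 7.63. Hepatocyte enzymes averaged 5.95, 7.095 and 5.96. The higher level in line 2 is thus not particular to the members. These are differences between single arrays, with no test.

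The tests between groups called none of the members. Between AS lines and WT livers, 1 member had a positive and 8 a negative difference, with a median of -0.77, beside a median of 0.02 over all genes. None of the 9 was called in either direction with limma, where 11.1% of all genes were called lower and 17.6% higher. Only Alb had an unadjusted p under 0.05. Alb was also the 1 member whose groups did not overlap, on the lower side, beside 19.5% of all genes lower without overlap and 28.3% higher. After shifting the arrays to a common 75th percentile, Alb (-1.17, adjusted p = 0.0383) and Ttr (-0.69, adjusted p = 0.0294) were called lower. With array weights Alb, Ttr and Hpx were called lower, at -0.87, -0.61 and -1.05. The shares of all genes called in these alternative fits are not given here, so these calls are not read as particular to the members.

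Between AS lines and KO livers, 7 members had a positive and 2 a negative difference, with a median of 0.43, beside 0.05 over all genes. None was called, at an adjusted or an unadjusted p, where 10.1% of all genes were called lower and 11.4% higher. Afp was the 1 member whose groups did not overlap, on the higher side, beside 24.1% of all genes higher and 16.7% lower without overlap. The margin was narrow, with 5.75 in line 3 as the lowest line and 5.69 in KO liver 2 as the highest KO liver. Leaving out single arrays turned the direction of 6 members in this comparison.

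**Figure D2:**
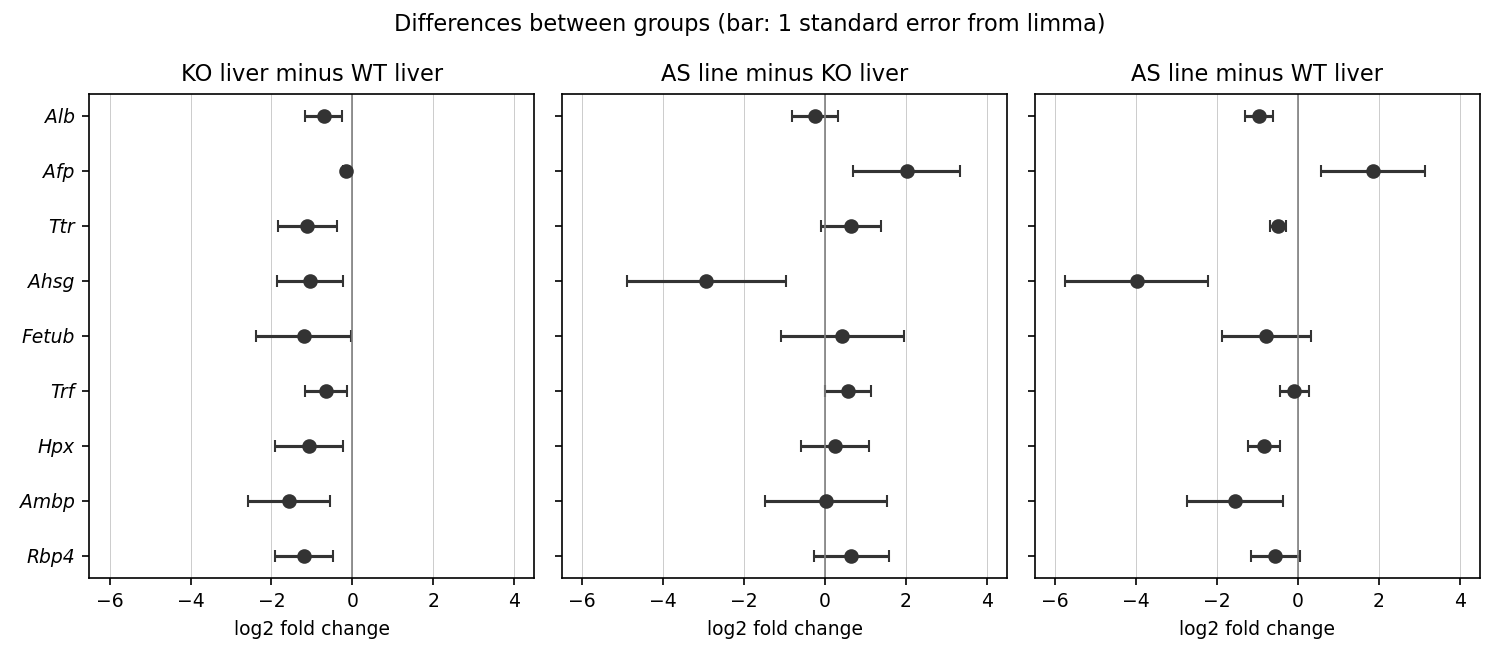
Log2 fold change of each measured carrier gene in the 3 comparisons (from left to right KO liver minus WT liver, AS line minus KO liver and AS line minus WT liver), with bars of 1 standard error from limma over 3 arrays a group. Ahsg has the lowest and Afp the highest value where AS lines are compared, with wide bars, and all 9 genes lie below 0 for KO liver minus WT liver.

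Between KO livers and WT livers all 9 members had a negative difference, from -1.57 for Ambp to -0.15 for Afp, with a median of -1.08, beside -0.0011 over all genes. None was called, at an adjusted p (0.304 to 0.549) or an unadjusted one. No gene at all was called in this comparison (0% lower and 0% higher), while 4479 genes had an unadjusted p under 0.05, of which 1030 were lower. No member's groups failed to overlap, beside 11.1% of all genes lower and 19.2% higher without overlap. Alb differed by -0.71 (SE 0.447), Ahsg by -1.04 (SE 0.821), Rbp4 by -1.20 (SE 0.714) and Ttr by -1.12 (SE 0.725). With array weights, which gave KO liver 2 a weight of 0.315 and WT liver 1 a weight of 0.274, Ambp (-2.51, adjusted p = 0.0364) and Rbp4 (-1.87, adjusted p = 0.0309) were called lower. In the same fit 25 of 26 hepatocyte enzymes, 30 of 40 other plasma proteins and 8 of 20 other carriers, lists described below, were called lower too. The members were not called more often there than all genes, whose count is given at the end. Without KO liver 2, 1949 genes were called and no member, while the median of the members was -1.84.

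The spread lay within the KO livers. KO liver 2 was above KO liver 3 for 9 of 9 members, by more than 1 log2 unit for 8 and by a median of 2.93. It was above KO liver 1 for 9 of 9 as well, by a median of 1.39 and by more than 1 log2 unit for 6, beside 4.98% of all genes. Over all genes 4.91% were more than 1 log2 unit higher in KO liver 2 than in KO liver 3. WT liver 1 was below WT liver 2 for 9 of 9 members, by a median of 0.71, though for Afp by only 0.0015. More than 1 log2 unit higher in WT liver 2 were 2 of 9 members, beside 3.56% of all genes. WT livers 2 and 3 were close to each other.

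Genes of hepatocyte metabolism were set beside the carriers. A list of hepatocyte enzymes and transporters with 26 measured genes averaged 8.69, 11.38 and 7.73 in KO livers 1, 2 and 3, and 10.17, 11.45 and 11.37 in WT livers. The 9 members averaged 10.98, 12.30 and 9.59 in the same KO livers, and 11.43, 12.14 and 12.19 in the WT livers. Both put KO liver 3 lowest and WT liver 1 lowest of its group. In bulk liver, fewer hepatocytes and less RNA per hepatocyte cannot be told apart. When every liver was scaled to the mean of the enzyme list, all 9 members turned positive in KO livers minus WT livers, with a median of 0.65, none of them called. This scaling adds the same amount to each gene of an array, Afp at background level included, so the turn shows only that the enzyme mean had the larger negative difference. Markers of other liver cells were read beside this. The endothelial list stayed within the ranges given above, the 11 Kupffer cell markers averaged 11.35 to 11.92 in KO livers and 11.30 to 11.88 in WT livers, and 10 lymphocyte markers averaged 6.24 to 6.39 in KO livers and 6.18, 8.13 and 8.15 in WT livers. The 10 bile duct markers averaged 5.68 to 5.71 in KO livers and 6.13 to 6.49 in WT livers. All 10 of them were negative in KO livers minus WT livers and 8 did not overlap between the groups, beside 11.1% of all genes lower without overlap, and none was called. The part of hepatocyte content in the differences of the members was not tested.

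**Figure D3:**
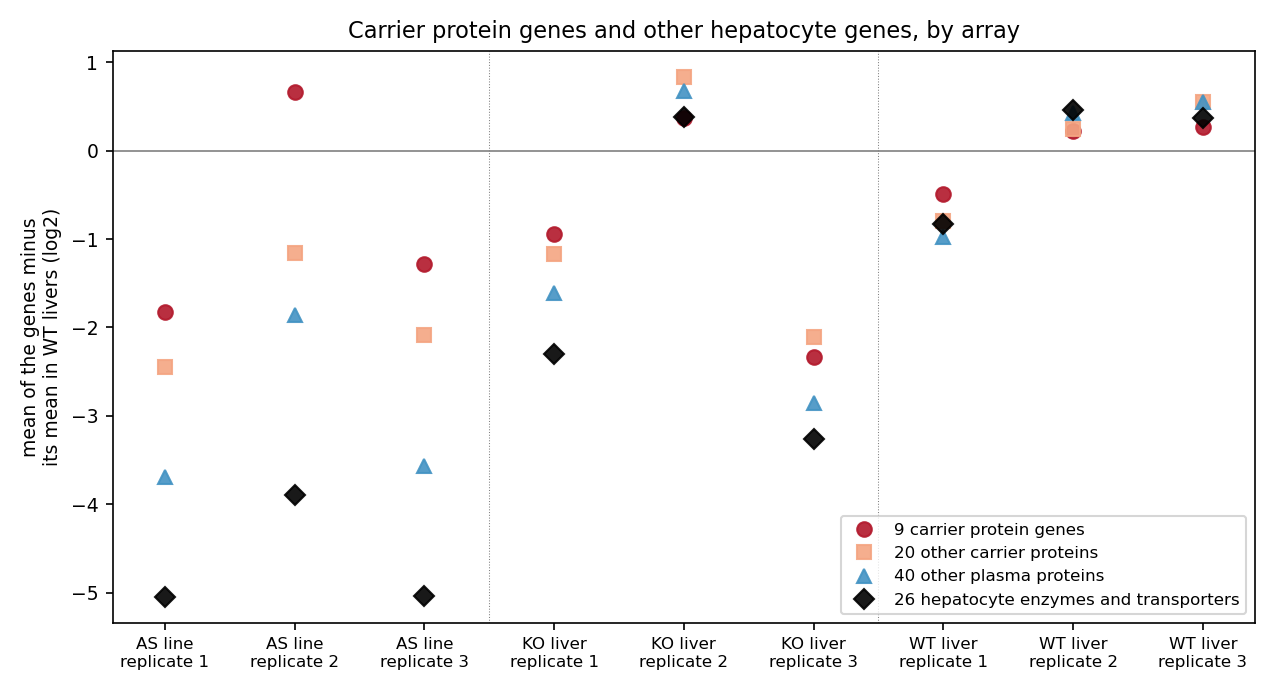
Mean log2 level of the measured carrier genes, of the hepatocyte enzymes, of other carriers and of other plasma proteins on each array, each minus its own mean over the 3 WT livers, with AS lines, KO livers and WT livers from left to right. In the livers the lists shift together, and in the AS lines the enzymes lie between -5.05 and -3.90 while the carrier genes lie between -1.82 and 0.66. Without Afp, which can be background in the livers, the carrier genes are at -2.13, 0.13 and -1.45 in AS lines 1, 2 and 3 (not drawn).

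In the AS lines the same enzymes were nearly all low. Their mean was 5.95, 7.095 and 5.96 in lines 1, 2 and 3. Of the 26, 25 were called lower than in WT livers, beside 11.1% of all genes, with a median of -4.44. Cyp2e1, a cytochrome P450 of hepatocytes that handles ethanol, was at 5.23 to 5.58 in AS lines, at 11.03 to 13.56 in KO livers and at 12.78 to 13.46 in WT livers. It differed by -7.77 between AS lines and WT livers (SE 0.210, adjusted p = 1.78e-05). Hpd, an enzyme of tyrosine breakdown, differed by -6.24 (SE 0.394, adjusted p = 0.000292). A few enzymes were higher in line 2 than in lines 1 and 3, and G6pc and Cps1 are named here after their values were seen. G6pc, which releases glucose from the liver, was at 5.64, 10.64 and 6.00 in AS lines, against 8.38 to 11.80 in KO livers and 10.86 to 12.41 in WT livers. Fbp1, of glucose synthesis, was at 4.94, 9.27 and 4.95 in AS lines, at 7.83 to 11.82 in KO livers and at 11.06 to 12.14 in WT livers. Cps1, the entry enzyme of the urea cycle, was at 5.56, 8.45 and 5.51 in AS lines, at 8.15 to 12.48 in KO livers and at 11.11 to 12.56 in WT livers. For each of these 3 enzymes line 2 lay below every WT liver. Between AS lines and KO livers 6 of the 26 enzymes were called lower and none higher, beside 10.1% and 11.4% of all genes. The count of 6 ran from 2 to 10 over the alternatives.

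Many other plasma proteins were called lower in the lines. Of 20 other carriers, 8 were called lower and 1 higher in AS lines than in WT livers, with a median of -1.35. The shares over all genes were 11.1% lower and 17.6% higher. Serpina6, the cortisol-binding globulin, was at 5.38, 5.59 and 5.14 in AS lines and at 11.63 to 12.57 in WT livers. Mup3, a major urinary protein, differed between them by -6.79 (SE 0.417, adjusted p = 0.000263). The carrier called higher was Cp, ceruloplasmin, which holds copper, at 12.09, 13.0005 and 12.87 in AS lines, at 8.88 to 11.80 in KO livers and at 10.91 to 11.57 in WT livers (1.34, SE 0.300, adjusted p = 0.0231 against WT). That call was lost in 5 of 6 fits that left out an array, and Cp was named after its values were seen. Against KO livers 4 of the 20 carriers were called lower and none higher, beside 10.1% and 11.4% of all genes. Pltp, the phospholipid transfer protein, differed there by -3.85 (SE 0.268, adjusted p = 0.000751).

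Of 40 further plasma proteins (coagulation, complement, apolipoproteins and protease inhibitors), 19 were called lower and none higher in AS lines than in WT livers. Their median was -3.05, and over all genes 11.1% were called lower and 17.6% higher. Pon1, an esterase carried on high-density lipoprotein, differed by -6.92 (SE 0.374, adjusted p = 0.000168) and Apoa2, an apolipoprotein of the same particle, by -6.17 (SE 0.307, adjusted p = 0.000125). The count of 19 ran from 13 to 31 over the alternatives and that of the other carriers from 3 to 10. Against KO livers 6 of the 40 were called lower and none higher, beside 10.1% and 11.4% of all genes. The count of 6 ran from 1 to 10. In KO livers against WT livers all 40 had a negative difference, with a median of -1.25, and none was called, while 17 of the 20 other carriers were negative with a median of -0.81. Whether the members differ from these lists was not tested.

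**Figure D4:**
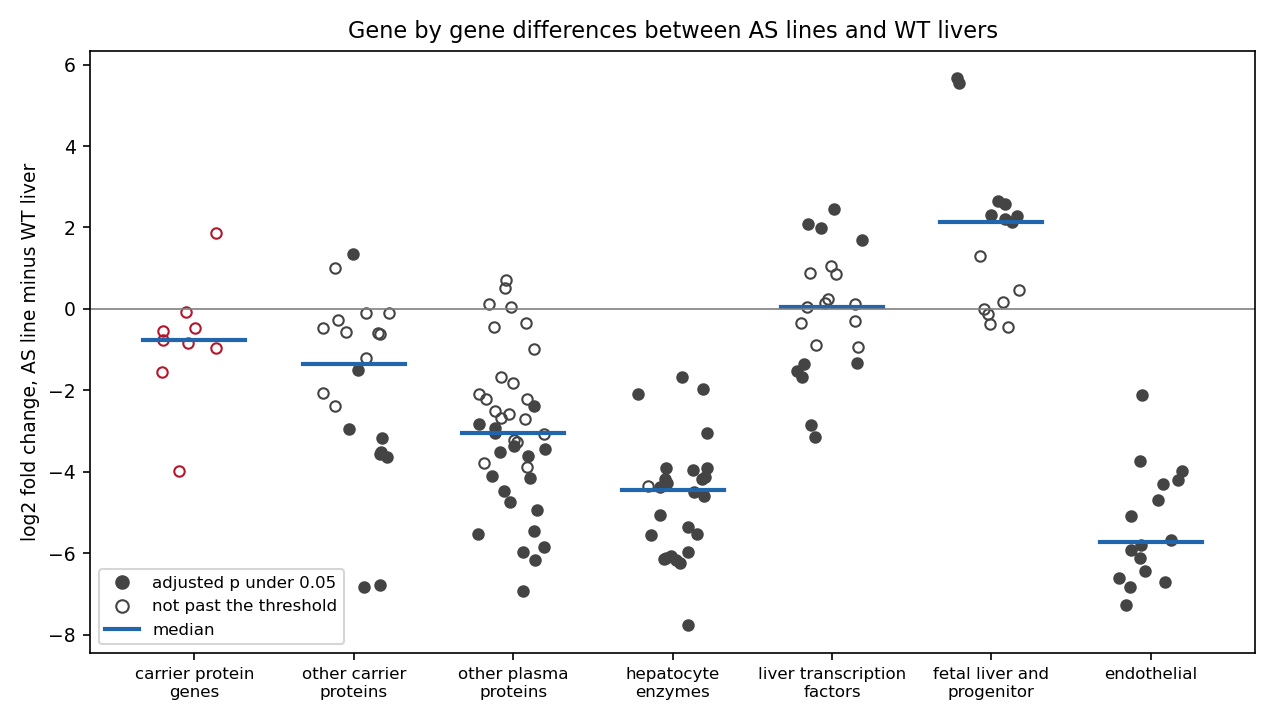
Log2 fold change of single genes, AS line minus WT liver, for the carrier genes and the lists named in the text, with filled points for an adjusted p under 0.05, open points for the rest and a blue bar at each median. The 9 carrier genes hold no filled point, while 25 of 26 hepatocyte enzymes and all 16 endothelial markers are filled and below 0.

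Transcription factors known from liver were called in both directions in the lines. Whether they act on the members was not tested. Of 21 measured liver factors, 4 were called higher and 6 lower in AS lines than in WT livers, beside 17.6% and 11.1% of all genes. Nr5a2, a nuclear receptor of bile acid and cholesterol control, was at 5.30, 6.85 and 6.21 in AS lines and at 9.01 to 9.43 in WT livers (-3.14, SE 0.397, adjusted p = 0.00326). Gata4 differed by -2.84 (SE 0.219, adjusted p = 0.000571) and Onecut2, a factor of liver and bile duct development, by 2.45 (SE 0.368, adjusted p = 0.00594). The following 2 were named after their values were seen. Foxa2, a pioneer factor of gut endoderm, was at 9.46, 9.16 and 9.46 in AS lines, at 6.84 to 7.89 in KO livers and at 7.10 to 7.41 in WT livers. It was called higher against WT (2.09, SE 0.134, adjusted p = 0.000311) and against KO (2.14, SE 0.306, adjusted p = 0.00794). Hnf4a, a nuclear receptor of hepatocytes, was at 10.95, 11.10 and 10.35 in AS lines, at 7.80, 10.35 and 7.16 in KO livers and at 8.84, 10.53 and 10.35 in WT livers, and its difference of 0.89 from WT was not called (SE 0.492, adjusted p = 0.244). Against KO livers 4 factors were called higher and 4 lower, beside 11.4% and 10.1% of all genes.

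Zhx2 and Zbtb20 are known repressors of Afp in the liver after birth. Of 5 measured genes on a list of Afp repressors and relatives, 2 were called higher and 1 lower in AS lines than in WT livers. Over all genes those shares were 17.6% and 11.1%. Against KO livers 1 was called higher and 1 lower, beside 11.4% and 10.1%. Differences were positive for 3 and negative for 2 against WT, and positive for 2 and negative for 3 against KO. Zhx2 was at 8.78, 9.34 and 8.96 in AS lines, at 7.77, 8.18 and 8.13 in KO livers and at 7.998, 8.28 and 8.28 in WT livers. It was called higher in the lines than in WT livers (0.84, SE 0.173, adjusted p = 0.0170) and than in KO livers (1.00, SE 0.189, adjusted p = 0.0187). Among the lines Zhx2 was highest in line 2, where Afp was high. Whether Zhx2 or Zbtb20 acts on Afp in these samples was not tested. Zbtb20 was at 10.07, 10.27 and 10.89 in AS lines, at 9.65 to 9.74 in KO livers and at 9.49 to 9.60 in WT livers, with a call against WT (0.86, SE 0.221, adjusted p = 0.0359) and none against KO (0.72, adjusted p = 0.0801). These calls were lost in 3 and 4 of the 6 fits against WT that left out an array. The Zhx2 call against KO was lost in 2 of 6. Zhx1, a relative of Zhx2, was called lower in the lines than in KO livers (-1.09, SE 0.109, adjusted p = 0.00260). Zfhx3, on the same list, was higher in every KO liver than in every WT liver, without a call (0.65, SE 0.0764, adjusted p = 0.0995).

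Genes known from fetal or progenitor-like liver cells were described because Afp is a fetal marker. Of 15 measured genes, 8 were called higher and none lower in AS lines than in WT livers, beside 17.6% and 11.1% of all genes. Against KO livers 7 were called higher and none lower, beside 11.4% and 10.1%. The difference was positive for 11 and negative for 4 against WT, and positive for 13 and negative for 2 against KO. Peg3, an imprinted gene, was at 12.28, 11.54 and 12.67 in AS lines, at 6.20 to 7.12 in KO livers and at 6.16 to 6.83 in WT livers. Tspan8, a membrane tetraspanin, was at 11.05, 10.13 and 10.77 in the lines and near 5 in the livers (5.56, SE 0.261, adjusted p = 0.000101 against WT). It is counted among the bile duct markers too. Cd24a, a surface glycoprotein of progenitor cells, was at 12.62, 10.88 and 12.98 in AS lines and at 9.45 to 9.56 in WT livers. All 3 were lowest in line 2, the line with Afp. The 8 calls against WT ran from 5 to 8 over the alternatives and the 7 against KO from 4 to 8. Gpc3 and Dlk1, on the same list and named after their values were seen, were not higher in the lines. Gpc3 averaged 5.57 in AS lines, 5.75 in KO livers and 5.94 in WT livers, and Dlk1 7.10, 7.14 and 7.23.

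Receptors for the carriers were next. Of 19 measured genes for receptors and iron handling, 1 was called higher and 5 lower in AS lines than in WT livers, where 17.6% of all genes were called higher and 11.1% lower. The gene called higher was Tfrc, the transferrin receptor, at 10.11, 9.97 and 8.53 in AS lines, at 8.14, 7.51 and 7.31 in KO livers and at 6.84, 7.52 and 7.66 in WT livers. It was higher by 2.20 against WT (SE 0.480, adjusted p = 0.0211) and by 1.88 against KO (SE 0.490, adjusted p = 0.0492), and each call was lost in 5 of 6 fits that left out an array. Tfr2, a receptor that senses loaded transferrin in hepatocytes, was at 7.36, 9.23 and 7.87 in AS lines, at 6.37 to 10.20 in KO livers and at 7.49 to 9.46 in WT livers, and was not called in any comparison.

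Lrp1, which takes up the heme-hemopexin complex, was at 10.09, 11.02 and 11.18 in AS lines, at 10.91 to 12.02 in KO livers and at 11.18 to 11.60 in WT livers, without a call. Cd163, a macrophage receptor for haptoglobin and hemoglobin, was at 5.16 to 5.24 in AS lines and at 8.41 to 9.23 in WT livers, a difference of -3.65 (SE 0.214, adjusted p = 0.000220). All 11 Kupffer cell markers were called lower in the lines too. Asgr1, a subunit of the receptor that clears desialylated plasma proteins, differed from WT by -3.40 (SE 0.533, adjusted p = 0.00696), and Slc40a1, the iron exporter ferroportin, by -2.73 (SE 0.306, adjusted p = 0.00219). Fcgrt, the receptor that rescues albumin from breakdown, is not analysed here.

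Stra6, a receptor that takes up vitamin A from Rbp4, was at 11.24, 7.05 and 8.65 in AS lines, at 6.82 to 6.92 in KO livers and at 6.98 to 7.06 in WT livers. It was high in line 1, which also had high Rbp4, and at liver level in line 2, which had more. The group difference from WT was 1.95 (SE 1.03, adjusted p = 0.221). Stra6l, the liver receptor for the same carrier, was at 6.28, 8.82 and 7.98 in AS lines, at 6.86 to 9.15 in KO livers and at 7.75 to 9.19 in WT livers, without a call.

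Among 19 genes of vitamin A handling, 2 were called higher and 3 lower in AS lines than in WT livers. Over all genes 17.6% were called higher and 11.1% lower. Lrat, which esterifies retinol for storage in stellate cells, was at 5.67, 5.93 and 5.95 in AS lines, at 7.87 to 9.56 in KO livers and at 8.35 to 9.44 in WT livers (-3.06, SE 0.283, adjusted p = 0.00112 against WT). Cyp26b1, which breaks down retinoic acid, differed by -2.94 (SE 0.270, adjusted p = 0.00110). Bco1, which splits beta-carotene into retinal, was at 8.75, 11.48 and 9.06 in AS lines, at 6.73 to 7.31 in KO livers and at 6.63 to 7.31 in WT livers (2.78, SE 0.743, adjusted p = 0.0402 against WT). Aldh1a1, a retinal dehydrogenase, was called higher against WT (1.91, SE 0.524, adjusted p = 0.0437) and against KO (3.79, SE 0.954, adjusted p = 0.0449). The calls of Bco1 and of Aldh1a1 against WT were lost in 4 and 5 of 6 fits that left out an array, and that of Aldh1a1 against KO in 5 of 6.

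The genes most like the members were found by Pearson's r of log2 values over arrays and are a description. Over the 6 livers the mean of the measured members was followed most closely by Kng1 (r = 0.9992), which encodes kininogen, then Ces1c, Cyp2c23, Uox and Cps1 (r from 0.9982 to 0.9973). No likeness is given for Afp over the livers, where its values span only 5.46 to 5.75 and can be background. Over all 9 arrays Rbp4 was most like Abcc2 (r = 0.9797), the canalicular exporter of conjugated bilirubin, at 10.22, 10.99 and 7.42 in AS lines, at 7.16 to 11.13 in KO livers and at 9.09 to 10.72 in WT livers. Reep6, Ggt6, Cth and Scd1 came next (r from 0.9651 to 0.9257).

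The same search was made for Ahsg and Afp over all 9 arrays after their values were seen. Ahsg was most like Kng1 (r = 0.9937), at 6.76, 12.39 and 7.25 in AS lines, at 9.50 to 13.07 in KO livers and at 11.997 to 12.995 in WT livers. Next came F2, which encodes prothrombin (r = 0.9816), at 6.66, 12.26 and 6.44 in AS lines, at 8.56 to 12.47 in KO livers and at 10.60 to 12.32 in WT livers. Cdo1, Apoc3 and G6pc followed. These genes were chosen for their likeness to Ahsg, so the split of the lines that they show is part of the choice. Afp was most like Ddit3 (r = 0.9886), a stress-induced transcription factor, at 9.04, 11.43 and 8.89 in AS lines, at 8.46 to 8.88 in KO livers and at 8.48 to 8.81 in WT livers. That likeness rests on line 2.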

How the data were processed

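Per the labels' protocols, 250 ng of total RNA was labelled for whole-transcript arrays. The deposited values are log2 expression for 35556 probe sets, made by the authors with RMA and oligo per the submitters' processing notes, with no version named. A probe set was named where the platform annotation gave it 1 gene symbol (21789; 1621 had several and 12146 none), and a gene with several was read from the one of highest mean over the 9 arrays. Every comparison used limma 3.58.1 in R 4.3.3 (lmFit and eBayes, 2-sided) on the 6 arrays of its groups, with Benjamini-Hochberg adjustment over 19938 genes and a threshold of 0.05, and checked on simulated data. Differences are between means of log2 values, in the order AS line minus liver or KO liver minus WT liver.

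The members and lists were chosen with earlier results of these data known. Of 265 list entries, 31 were not measured. From each list the text names genes among the 3 of largest absolute fold change in each comparison, plus receptors and regulators tied to a member, and says where a gene was named after its values were seen. Promoters were read with Python 3.11.15. Alternatives were a replicate block, 1 fit of all 9 arrays, an intensity trend with robust moderation, a filter on dim genes (highest group mean under 7.063), a common 75th percentile, scaling of livers to 26 hepatocyte genes, the mean of all probe sets, array weights, each array left out and an adjusted p under 0.10. The same alternatives were run for lists and named genes, added after seeing the data. The number of arrays limits the precision. Each p-value sets a difference in means against the spread between these samples, moderated over all genes. For the lines that spread need not be one between mice.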

Additional observations from a re-analysis of the deposited data

How the results depend on the processing

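Of 386 values of single members under an alternative, 347 kept their direction and side of the threshold, 11 gained a call and 28 turned direction. No member was called in the values reported, so none could lose a call. The replicate numbers were not used as pairs. Correlations of same-numbered deviations ran from -0.393 to 0.43 in KO livers against WT livers and from 0.074 to 0.339 in AS lines against KO livers. In AS lines against WT livers they ran from -0.157 to 0.17. Arrays of different number were not correlated, so these values cannot decide whether the numbers pair the samples. The replicate block called 0 members in each comparison.

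In KO livers against WT livers, scaling to hepatocyte genes, which adds the same amount to each gene of an array, turned the median of the members to 0.65 and gave Alb 1.02, Afp 1.57, Ttr 0.61, Ahsg 0.69, Fetub 0.52, Trf 1.07, Hpx 0.65, Ambp 0.16 and Rbp4 0.53. Array weights called 2 of 9 members and 5744 of 19938 genes, all 9 arrays in 1 fit called 2 genes and an adjusted p under 0.10 called 366. Leaving out an array gave 0 to 1949 genes, the highest without KO liver 2 and 60 without WT liver 1.

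In AS lines against KO livers, Ambp was -0.0041 with the 75th percentile and Alb 0.0338 with array weights. Leaving out an array gave 0 to 1 members called lower (Ahsg, without line 2) and 2281 to 4048 genes called (2281 without KO liver 1, 2310 without KO liver 3, against 4275). It gave Alb -0.76 to 0.10, Ttr -0.11 to 1.36, Fetub -0.72 to 1.59, Hpx -0.55 to 1.05, Ambp -0.92 to 1.33 and Rbp4 -0.0079 to 1.40. In AS lines against WT livers, the members called lower were 2 with the 75th percentile, 3 with array weights and 1 (Alb) at an adjusted p under 0.10. Leaving out an array gave 0 to 2 members called lower (Alb and Ahsg, without line 2) and 3397 to 5435 genes called (3397 without WT liver 2, 3556 without WT liver 3, against 5715). It gave Fetub -1.92 to 0.0899, Trf -0.35 to 0.23 and Rbp4 -0.997 to 0.14. The causes were not tested.

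A normalization to nearly the same distribution cannot show a shift of most genes, and values near background or near the top of the scale understate differences.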
